A study of Homo sapiens with 27 samples.

Results

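The 77 autosomal protein-coding genes of the RefSeq table of GRCh38.p14 whose symbols name a protein of the cytosolic ribosome were examined, of 19122 autosomal protein-coding genes in all. They were chosen by symbol alone (RPL, RPS, RPLP and RPSA names, without the kinases that phosphorylate RPS6); the rule itself uses no measured value. Of them, 46 encode proteins of the large subunit and 31 proteins of the small subunit. Each gene was taken with 2 kb on either side, which gave 77 separate regions of 814779 bases in all.

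The marks are those of O6-MeG-seq, where an antibody enriches fragments that carry O6-methylguanine and the stop of a polymerase at the lesion marks its base. The DNA came from LN-229, an established human glioblastoma cell line, either transfected with MGMT, the enzyme that takes the methyl group off O6-methylguanine, or as the transfection control, called WT. Each version received 1 mM temozolomide (TMZ), a methylating drug used against glioblastoma, or 1% DMSO as its solvent. Doses were given 1 time or 3 times at 4 h intervals, and DNA was extracted 24 h after the first dose. This made 8 groups of cells with 3 biological replicates each. Another 3 libraries came from purified LN-229 DNA that met TMZ in a tube (naked DNA), with DNA of non-transfected WT cells in replicate 1, of WT cells in replicate 2 and of MGMT cells in replicate 3. All cells derive from LN-229, and whether the lines carry the same copy number in these regions was not tested here. No untreated cells were among these libraries, so solvent is the control of the cells and naked DNA the reference without chromatin or repair.

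Cytosolic ribosomal protein genes are short housekeeping genes, among the most transcribed of dividing cells, and their promoters lie in open chromatin. Most human transcripts of this family begin with a C followed by a run of pyrimidines, the 5′ terminal oligopyrimidine tract through which growth signals control their translation. TMZ breaks down in water to a methyldiazonium ion that methylates guanine at several positions, and O6-methylguanine, which pairs with thymine, is the lesion that MGMT removes and mismatch repair turns toxic. The members spanned a median of 5011 bp (772 to 27723 bp), against 24490.5 bp over all autosomal protein-coding genes. They were spread over the autosomes, with 12 of 77 (15.6%) on chromosome 19, which carries 7.59% of all such genes.

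The promoters show where single marks fell. RefSeq's promoter table of GRCh38.p14 held 60 of the 77 members, with the strand of each gene. The 250 bases before the start are printed for the 2 members with the most marked positions, RPS21 and RPS24, and for the next 2, RPL3 and RPS18, 5′ to 3′ on the coding strand. Capitals mark a G that carried a mark in naked DNA or in TMZ-treated cells at a score of 30 or more, or a C whose partner G on the opposite strand did.
RPS21 (chr20:62386853-62387102, plus strand): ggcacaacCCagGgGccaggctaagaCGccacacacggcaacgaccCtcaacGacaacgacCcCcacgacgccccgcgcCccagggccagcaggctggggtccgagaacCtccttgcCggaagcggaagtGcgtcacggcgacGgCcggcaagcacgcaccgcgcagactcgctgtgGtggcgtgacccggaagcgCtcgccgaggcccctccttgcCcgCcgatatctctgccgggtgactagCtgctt
RPS24 (chr10:78033613-78033862, plus strand): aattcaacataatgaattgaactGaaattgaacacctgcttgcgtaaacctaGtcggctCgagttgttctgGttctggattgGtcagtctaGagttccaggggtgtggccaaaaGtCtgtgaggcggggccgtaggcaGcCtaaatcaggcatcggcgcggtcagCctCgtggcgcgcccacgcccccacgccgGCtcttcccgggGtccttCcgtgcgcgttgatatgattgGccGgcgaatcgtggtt
RPL3 (chr22:39319624-39319873, minus strand): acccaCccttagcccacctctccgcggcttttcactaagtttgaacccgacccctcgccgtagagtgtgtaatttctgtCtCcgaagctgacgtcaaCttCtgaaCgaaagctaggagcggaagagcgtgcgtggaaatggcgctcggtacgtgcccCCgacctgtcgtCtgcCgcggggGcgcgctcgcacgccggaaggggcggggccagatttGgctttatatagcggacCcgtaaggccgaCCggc
RPS18 (chr6:33271825-33272074, plus strand): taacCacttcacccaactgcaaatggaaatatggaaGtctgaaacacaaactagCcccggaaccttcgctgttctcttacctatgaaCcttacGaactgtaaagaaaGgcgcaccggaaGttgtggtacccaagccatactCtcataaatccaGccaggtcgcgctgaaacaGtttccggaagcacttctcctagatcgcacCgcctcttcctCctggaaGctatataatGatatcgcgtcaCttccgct
The marks are scattered over each window. RPS21, a small subunit protein, had 21 marked positions of 175 G positions on both strands, 11 of them marked in naked DNA and 13 in TMZ cells. RPS24, a small subunit protein that is mutated in some families with Diamond-Blackfan anaemia, had 18 of 143. RPL3, a large subunit protein that reaches toward the peptidyl transferase centre, had 15 of 155, and RPS18 had 15 of 121. Over the 60 promoters, 545 of 8707 G positions were marked, with a median of 9 and a range from 0 in RPL6 to 21 in RPS21. The RPL6 window (chr12:112411443-112411692, minus strand) lies inside the gene as counted here (112405181 to 112418835). Its 0 therefore does not describe the bases before the outer start of that gene.

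The base before a marked G differed between TMZ samples and solvent. In the 300 bases around the starts of the 60 members, 54.2% of all G had a purine (A or G) before them. Of the 299 marked G in naked DNA 73.9% followed a purine, and of the 421 in TMZ cells 79.1% did. Of the 35 marked G in solvent cells the share was 54.3%, close to the sequence itself. In the promoters of all 15100 genes of the table the shares were 78.3%, 78.9% and 58.5%, with 57.2% of all G after a purine. Sites pooled over libraries are given here as a description with no test. Every one of the 272060 marked bases in these windows equalled the RefSeq base.

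Sequence motifs of the family were present in the same promoters. A C at the start followed by 4 pyrimidines was found in 40 of 60 members (66.7%) and in 4.58% of all 15100 promoters. CCGGAAG, a core of ETS factor sites, lay on either strand within the 250 bases in 19 members (31.7%) and in 11.9% of all promoters. AAGATGGC, a core of YY1 sites, lay on either strand within the 300 bases in 6 members (10.0%) against 3.87%. The share with GGGCGG, the core of an SP1 site, was 55.0% against 56.1%, and with TATAAA 10.0% against 9.42%. GGGG, a run of the kind of bases TMZ prefers, was in 90% against 92.1%. CCGGAAG holds no GGGCGG or GGGG and was searched apart from them. These are matches of letters only.

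The libraries differed in size and in how many of their sites were at G. Between 1347019 and 15745885 sites were listed per library, and at a score of 30 or more between 165195 and 8822222 of the autosomal sites were at G. G made up 67.8% to 70.9% of autosomal sites in naked DNA, 32.6% to 64.1% in TMZ cells and 19.0% to 27.8% in solvent cells, except for 1 solvent library. That library, MGMT cells with 1 solvent exposure, replicate 1, had 43.7% at G, within the range of TMZ cells, and the pooled results, the counts of calls, the gene lists and the start profile against solvent are therefore also given without it. Libraries also fell into 5 sets by how often sites at other bases recurred between them. For each pair of libraries the number of shared sites was divided by the product of both list sizes. Libraries were joined into a set through pairs where this ratio was over 1.6 times its median. Of 85 pairs within sets 48 passed this themselves, with a ratio of up to 289 times the median. No pair across sets had a ratio over 1.4 times the median. Sets 1, 2 and 3 hold groups mixed (replicate 1 of all cells with 1 exposure together with naked replicate 1, for example). Set 4 holds only replicate 3 of both lines with 3 solvent exposures, and set 5 only naked replicates 2 and 3. Naked replicates 2 and 3 thus share no set with cells. Values within a set stand beside the pooled ones where the set holds both sides. The labels call the replicates biological without naming separate cultures, so p-values measure the spread between these samples.

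The member regions held 24583 marked G in all, 8483 in naked DNA, 14205 in TMZ cells and 1895 in solvent cells. Per library the number ran from 60 (WT cells, 1 solvent exposure, replicate 1) to 3673 (naked DNA, replicate 1). The level used below is the number of these sites per 1000000 marked G on the autosomes (ppm below). With 60 sites it was 363 ppm, with a Wilson 95% interval of 282 to 467, and with 3673 sites 416 ppm, with an interval of 403 to 430. These intervals cover counting error only. The score filter left 4.37% to 32.7% of all sites in member regions out.

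In naked DNA the members carried 416, 437 and 445 ppm. After 3 TMZ exposures WT cells had 440, 444 and 469, and MGMT cells had 398, 436 and 445. After 1 exposure WT cells had 419, 348 and 414, and MGMT cells had 435, 316 and 383, so replicate 2 was lowest in both lines. With 1 solvent exposure the values were 363, 308 and 350 in WT cells and 425, 283 and 341 in MGMT cells. With 3 solvent exposures they were 371, 342 and 299 in WT cells and 271, 356 and 364 in MGMT cells. The 3 exposure TMZ libraries overlapped naked DNA, while 11 of 12 solvent libraries lay below all 3 naked libraries and the remaining one, the solvent library rich in G, between them.

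**Figure D1:**
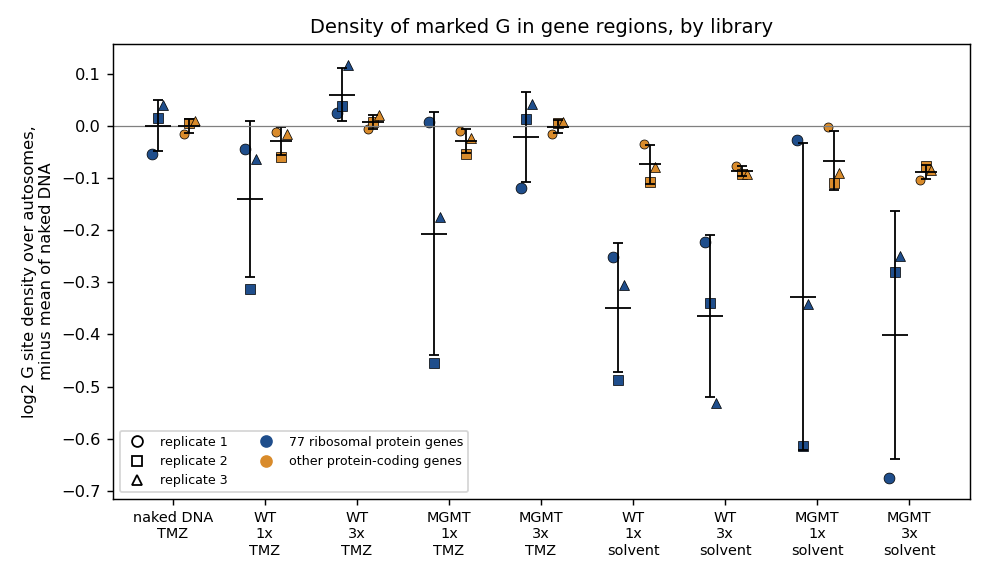
Each point is 1 library. The vertical axis is the log2 density of marked G over that of all autosomes, minus the mean of the 3 naked DNA libraries, for the 77 ribosomal protein genes (blue) and all other protein-coding genes (orange). Bars are the mean and 1 SD of 3 replicates. The ribosomal protein genes lie near 0 after 3 TMZ exposures and between -0.675 and -0.027 in solvent cells, with a wider spread than the other genes.

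Whether marks in cells were as dense in these genes as on bare DNA was asked by comparing TMZ cells with naked DNA. The log2 density of the members, relative to the naked mean, was -0.077 ± 0.165 (SD, n = 12) in TMZ cells and 0 ± 0.049 (n = 3) in naked DNA. The difference of -0.077, which is 0.948-fold, did not exceed the spread of the libraries (p = 0.488 in an exact permutation test, two-sided, and 0.628 after adjustment over 12 comparisons). Over the regions of all other protein-coding genes instead of the autosomes it was -0.064 (exact permutation p = 0.523). The density difference was -0.011 in gene bodies alone and -0.0013 with solvent background subtracted. It was -0.127 without replicate 1 and -0.019 without replicate 2. In set 1, the only one with naked DNA and cells, the difference was 0.037. The large subunit genes stood at -0.065 ± 0.153 and the small subunit genes at -0.095 ± 0.194 in TMZ cells. Gene by gene, 0 of 76 members tested differed from naked DNA in limma's voom fit at an adjusted p of 0.05, where 0.672% of all 18317 genes did. Of 4666 other genes of at most 10 kb, 0 were higher and 0 lower. At an unadjusted p under 0.05 there were 3 of 76 members (3.95%) against 13% of all genes, and limma-trend gave 0 members at either threshold, with 0.306% of all genes at the unadjusted one.

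Against solvent, TMZ raised the share of marks in these genes. The density was -0.077 ± 0.165 in 12 TMZ libraries and -0.361 ± 0.184 in 12 solvent libraries, a log2 difference of 0.28, or 1.22-fold (p = 0.00156 in the exact permutation test, with labels exchanged among libraries of one line and dosing scheme, and adjusted p = 0.0188). All 12 same-numbered pairs were higher with TMZ. The difference was 0.12, 0.29 and 0.28 within sets 1, 2 and 3, where set 1 includes the solvent library rich in G. It was 0.31 over all sets without that library (p = 0.000363 in the exact test). Over other genes it was 0.22 (exact p = 0.00325, adjusted p = 0.0195, 12 of 12 pairs), and without replicate 3 it was 0.20 (exact p = 0.0540). Averaged over members with equal weight, after 0.5 was added to each member's site number, it was 0.18 and missed the threshold (exact permutation p = 0.063). The added 0.5 weighs more where sites are few. Solvent libraries held 60 to 251 sites over all members and TMZ libraries 274 to 2431. The part of the added 0.5 in the smaller difference was not tested.

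Other short genes moved further. The 5259 other autosomal protein-coding genes of at most 10 kb stood at -0.132 ± 0.142 in TMZ cells and -0.524 ± 0.225 in solvent cells. Relative to them the members were lower with TMZ than with solvent, by 0.11 on the log2 scale (value -0.109, exact permutation p = 0.00898), so the direction depends on the genes the members are set against. Relative to the mitochondrial ribosomal protein genes, whose products serve the ribosome of mitochondria, the difference was 0.15 (exact p = 0.0786), to translation factors 0.19 (exact p = 0.00785) and to olfactory receptor genes 0.40 (exact p = 0.00313). Without the solvent library rich in G the 4 differences were -0.129, 0.18, 0.21 and 0.45 (exact p = 0.0017, 0.0373, 0.00229 and 0.00060), so the one over mitochondrial ribosomal protein genes then passed. These denominators were chosen after the data had been seen.

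Sites at bases other than G moved in the same direction. In the member regions their log2 density relative to naked DNA was -0.192 ± 0.186 in TMZ cells and -0.435 ± 0.183 in solvent cells (-0.443 ± 0.189 without the solvent library rich in G). The odds of a site being at G in the members, minus the same on the autosomes (log2), were 0.31 ± 0.105 in TMZ cells, 0.27 ± 0.175 in solvent cells and 0.20 ± 0.043 in naked DNA. The odds differed by 0.040 between TMZ and solvent (exact permutation p = 0.510, adjusted p = 0.628, higher in 7 of 12 pairs) and by 0.062 without the solvent library rich in G. The gain of marks at G was thus not separable from that of sites at other bases by this measure.

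Within TMZ cells, libraries after 3 exposures were compared with those after 1. The 6 libraries with 3 exposures stood at 0.019 ± 0.077 and the 6 with 1 exposure at -0.173 ± 0.179, a log2 difference of 0.19 (exact permutation p = 0.030, adjusted p = 0.120, with 5 of 6 pairs higher). It thus did not pass after adjustment. Unadjusted it also missed 0.05 in gene bodies alone, with solvent background subtracted, with replicate number as a block and without replicate 1, 2 or 3 (0.30, 0.085 and 0.19), where the smallest p possible is 0.0556. Within sets 2 and 3 it was 0.34 and 0.17. Against solvent, with means of -0.383 after 3 exposures and -0.338 after 1 exposure, the TMZ difference was 0.40 and 0.16 (n = 6 libraries of each kind). These effects differed by 0.24. Taken between same-numbered libraries, the differences had SDs of 0.163 and 0.071 and an exact permutation p of 0.005, the smallest this design allows (adjusted p = 0.030 over 6 such tests). The SDs and the p depend on that matching, which the numbers were not shown to carry, while the 0.24 does not. The effects differed by 0.21 without the solvent library rich in G (p = 0.025 in the exact test). The same difference was 0.049 in all other genes and 0.33 in other genes of at most 10 kb.

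MGMT removes O6-methylguanine, and the density in these genes was compared between lines to see whether it changed where the remaining marks lay. Under TMZ the MGMT libraries stood at -0.114 ± 0.187 and the WT libraries at -0.040 ± 0.148 (n = 6 each). The difference of -0.074 was within the spread (exact permutation p = 0.365, adjusted p = 0.626, with MGMT lower in 5 of 6 pairs). Over translation factors, a denominator chosen after the data had been seen, it was -0.171 (exact permutation p = 0.030, not adjusted), and over all other genes -0.070 (exact permutation p = 0.365). Sets 1, 2 and 3 gave 0.052, -0.143 and -0.081. Under solvent the lines differed by -0.0081 (exact permutation p = 0.960) and by -0.076 without the solvent library rich in G. The odds at G differed by 0.073 between the lines under TMZ (exact permutation p = 0.250). The TMZ minus solvent difference was 0.25 ± 0.178 in MGMT and 0.32 ± 0.176 in WT cells, and the test of their difference, again between same-numbered libraries, did not pass (difference -0.066, exact permutation p = 0.365, and -0.023 without the solvent library rich in G).

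In the fit across all genes TMZ and solvent differed in 2398 of 18317 genes tested (13.1%), 2026 of them higher with TMZ (11.1%). Of 76 members tested, 1 was called, and it was higher; RPL10L had too few sites to be tested. The fitted log2 difference was positive in 59 of 76 members (77.6%) and in 65.9% of all genes tested, with medians of 0.20 and 0.13. Library sizes from a trimmed mean moved the median of all genes from 0.13 to 0.016, and the calls were then 1190 higher and 956 lower. With those sizes 45 members were positive, with a median of 0.099. With gene bodies alone the members' median was -0.044 against 0.095 over all genes, with 33 of 70 members positive. The pooled density in bodies alone still rose, by 0.22 (exact permutation p = 0.00794). Without the solvent library rich in G, 7 members passed (9.21%), all higher, where 16.8% of all genes did. With no minimum score 9 members passed (11.8%), where 20.4% of all genes did. Without replicate 1 there were 4 (5.26%) against 11.4% of all genes, and without replicate 2 there were 0 against 1.58%. At each setting the members' share was thus below that of all genes.

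RPLP2, an acidic protein of the ribosomal stalk that recruits elongation factors, was the member that rose with TMZ against solvent (chromosome 11, 809967 to 812876). Its region had 3.85, 4.88 and 4.67 ppm in naked DNA. In 12 TMZ libraries the rate ran from 2.30 through a median of 4.88 to 6.0, and in 12 solvent libraries from 0 through 0.70 to 3.83. Solvent libraries held 8 of its sites in all and TMZ libraries 157. The ranges overlap, since some solvent libraries with 1 to 3 sites reach the lower TMZ values. The fitted log2 difference was 1.15 ± 0.28 (SE), with an adjusted p of 0.00581 in limma's voom fit. It passed under each other setting but for the one without replicate 2 (log2 1.11, adjusted p = 0.0854).

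RPS19 and RPS28, small subunit proteins, missed the threshold narrowly. Their fitted log2 differences between TMZ and solvent were 0.69 (adjusted p = 0.0576) and 0.82 (adjusted p = 0.0624) in limma's voom fit. Both fall outside the rule for named genes and were chosen after their values were seen. The members that joined RPLP2 without the solvent library rich in G included RPS7, RPS28, RPS19, RPS21 and RPL3. Of these, RPS7 also falls outside the rule and was chosen after its values were seen. RPS21 and RPL3 are within the rule, by their sites per kb in naked DNA. RPS21 then had a log2 difference of 1.04 (adjusted p = 0.0126, limma voom), against 0.74 (adjusted p = 0.107) with that library.

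**Figure D2:**
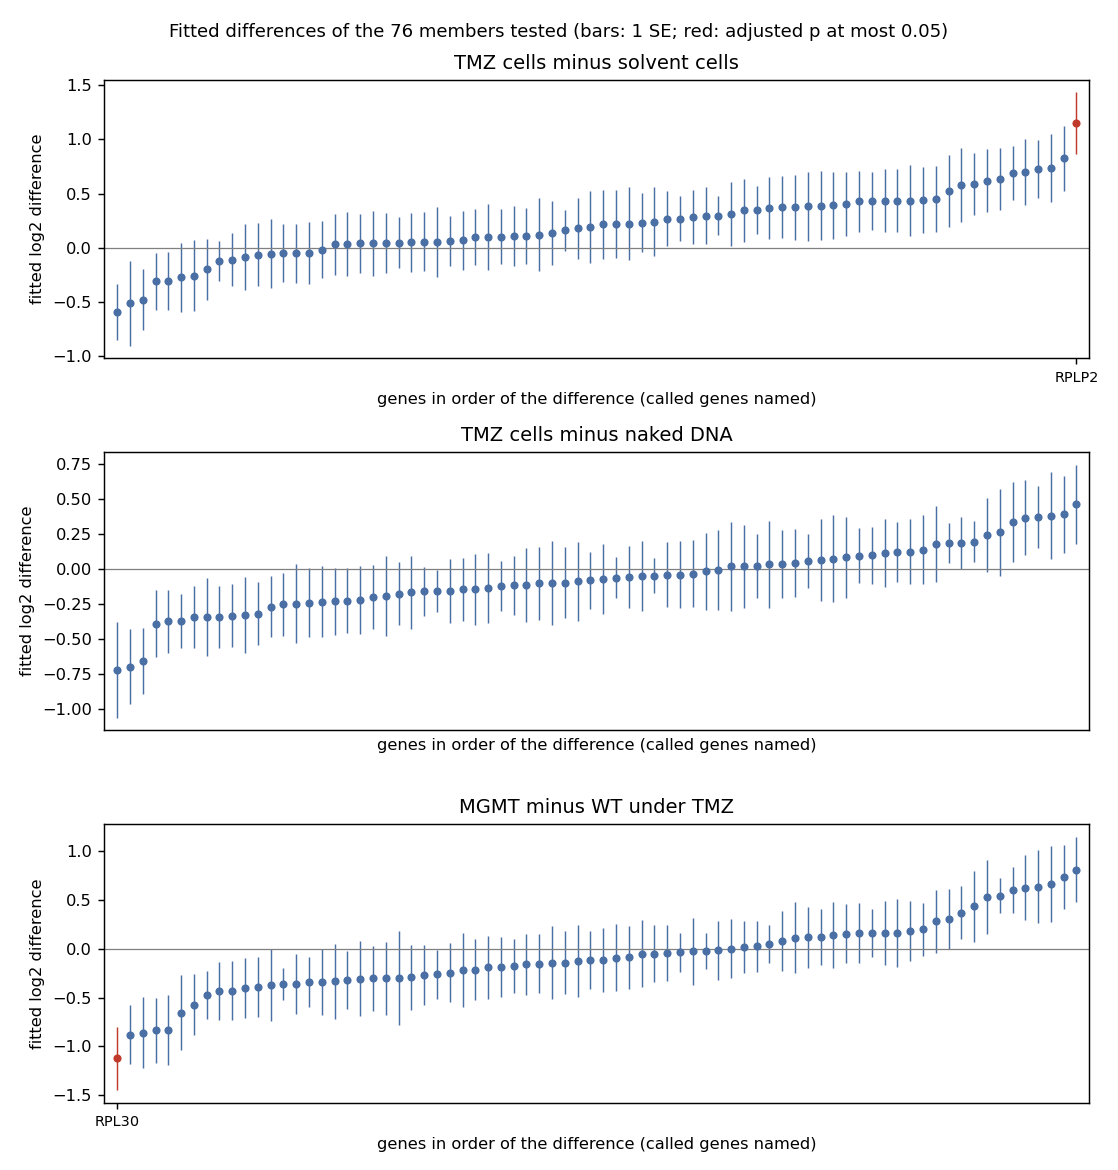
Each point is 1 of the 76 ribosomal protein genes tested, ordered by the fitted log2 difference in marked G per gene region in limma's voom fit; bars are 1 SE, and red points, the ones named on the axis, have an adjusted p of at most 0.05. RPLP2 (1.15) is the 1 red point for TMZ minus solvent, no gene is red for TMZ cells minus naked DNA, and RPL30 (-1.12) is the 1 red point for MGMT minus WT under TMZ.

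RPL30, a large subunit protein on the side that faces the small subunit, fell in MGMT against WT cells under TMZ (chromosome 8, 98041721 to 98045545). Here 5.83% of all genes tested differed and 2.18% were lower and 3.65% higher, while of 76 members 1 was lower and 0 were higher. Of 4666 other genes of at most 10 kb, 18 were lower and 10 higher, so calls were also few among other short genes. Its rate in 6 WT libraries ran from 3.69 through a median of 4.32 to 8.44 ppm, and in 6 MGMT libraries from 0 through 2.52 to 4.30. The low values were those of MGMT cells after 1 exposure, with 0, 1 and 1 sites, while MGMT cells after 3 exposures had 3.97, 4.30 and 3.88 ppm, inside the WT range. The fitted log2 difference was -1.12 ± 0.33 (SE), with an adjusted p of 0.0266 in limma's voom fit. The call was lost by limma-trend (adjusted p = 0.323), with no minimum score (0.132), in the gene body alone (0.286) and without replicate 1, 2 or 3 (0.234, 0.107 and 0.151). The log2 difference at these settings was -1.18, -0.87, -0.79, -0.88, -1.33 and -1.18, in the same order. Without replicate 1 the 1 member called was RPL31, a large subunit protein, which was higher in MGMT cells (log2 0.71, adjusted p = 0.0259 in limma's voom fit, against 0.54 and 0.0627 with all replicates), and 4.54% of all genes were called. RPL31 was named after its values were seen. With all replicates, the interaction of genotype and TMZ was -0.91 ± 0.57 for RPL30 (adjusted p = 1.000) and -0.058 ± 0.38 for RPL31. For neither gene was the difference between the lines thus shown to differ from that under solvent. No member passed for this interaction, with 7 at an unadjusted p under 0.05, and 0 of 18317 genes passed in limma's voom fit (769 unadjusted) or by limma-trend.

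Among the members, the sites per kb in naked DNA ran from 4.82 in RPL10L through a median of 10.4 to 29.9 in RPS21. This value depends on the markable and mappable G of a region and was not corrected for copy number. The densest after RPS21 were RPL8 with 18.3, RPL3 with 17.3, RPL13 with 16.8 and RPS15 with 16.7 sites per kb. RPL8 lies near the tRNA sites of the large subunit, RPL13 is a large subunit protein and RPS15 helps export the small subunit from the nucleus. RPS21 had a mean of 8.27 ± 2.33 ppm in naked DNA (n = 3) and a median of 6.35 in TMZ cells (3.46 to 9.75). RPL8 had 6.30 ± 2.03 and a median of 5.49 (2.30 to 10.9), and RPL3 had 9.43 ± 1.04 and a median of 8.75 (4.47 to 12.1). TMZ cells thus covered the naked level in each of these, and solvent libraries reached 0 in all 3.

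The stalk proteins did not share a direction against naked DNA. RPLP0, to which the other stalk proteins attach, had the lowest fitted log2 difference of all members, -0.72 ± 0.34 (SE). It had 4.59 ± 0.45 ppm in naked DNA, and TMZ cells ran from 0 through 4.16 to 6.03. The 3 TMZ libraries without a site were WT and MGMT replicate 1 and MGMT replicate 2, all after 1 exposure, libraries with 274 to 348 sites over all members. RPLP1 stood at 0.34 ± 0.29, with 3.03 ± 0.73 in naked DNA and a median of 3.36 in TMZ cells. RPLP2 stood at 0.13 ± 0.24. None of the 3 passed (adjusted p = 0.353, 0.662 and 0.868 in limma's voom fit).

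Of the other large subunit genes, RPL21, RPL37A, RPL35A and RPL13 were at the ends of the same ranking. RPL21 had the highest difference against naked DNA (0.46 ± 0.28), from 2.96 ± 0.36 ppm in naked DNA to a median of 4.29 in TMZ cells (1.21 to 5.97), and its naked libraries lie inside the range of TMZ cells. RPL37A followed with 0.39 ± 0.28. RPL30 stood at -0.66 ± 0.24 and was already among the lowest, RPL35A, mutated in some patients with Diamond-Blackfan anaemia, at -0.39 ± 0.24 and RPL13 at -0.37 ± 0.20. RPL5, which carries 5S ribosomal RNA and binds MDM2, had 5.91 ± 1.14 ppm in naked DNA and a median of 7.83 in TMZ cells, and a difference of 0.12 ± 0.22. Errors are SE for fitted differences and SD for rates. These genes were picked as the ends of the ranking and none passed the threshold.

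Among the small subunit genes RPS27 and RPS23 were near the top of the ranking against naked DNA, at 0.38 ± 0.31 and 0.37 ± 0.27. RPS23, which forms part of the decoding centre, had 2.76 ± 0.18 ppm in naked DNA and a median of 3.43 in TMZ cells. RPS15 was lowest, at -0.70 ± 0.27, with 5.29 ± 0.69 in naked DNA and a median of 3.71 in TMZ cells (0 to 5.42), so most TMZ libraries lay below the naked mean but their range reached it. RPS14, one of the genes lost in 5q- syndrome, stood at -0.37 ± 0.22. RPS6, the target of the S6 kinases, had 3.34 ± 0.905 and a median of 3.60 (difference 0.033 ± 0.31). RPSA, also known as the laminin receptor, had 4.01 ± 0.525 and a median of 3.75 (difference 0.14 ± 0.25).

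Paralogs that are restricted in tissue or induced by p53 were read the same way. RPL3L, the form of RPL3 in heart and skeletal muscle, had 10.6 ± 1.29 ppm in naked DNA and a median of 9.91 in TMZ cells (4.18 to 16.3). RPL39L, a form of RPL39 found in testis, had 7.32 ± 1.70 and a median of 7.66. RPS27L, which p53 induces, had 6.01 ± 0.39 and a median of 5.15. Their fitted differences against naked DNA were -0.16 ± 0.18, 0.10 ± 0.20 and -0.20 ± 0.23, all within the range of the other members. RPL10L, a gene without introns used in testis, had 23 sites in naked DNA, 41 in TMZ cells and 4 in solvent cells, too few for a value of its own. Leaving RPL3L, RPL10L and RPL39L out changed the TMZ against solvent density from 0.28 to 0.30. Processed pseudogenes of this family are many, and a site whose reads also match a pseudogene cannot be placed with certainty. The share of sites under a score of 30 was 4.37% to 32.7% in the members and 8.46% to 38.9% in other genes.

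Related lists, described by counts and medians, put the members in context. Against solvent, the median fitted log2 difference was 0.16 in large subunit and 0.27 in small subunit genes, with 1 of 45 and 0 of 31 called. Ribosome biogenesis genes (nucleolar factors such as NCL and FBL) had a median of 0.31, with 7 of 29 higher and none lower. Mitochondrial ribosomal protein genes had 0.16, with 5 of 76 higher, and translation factors 0.12, with 2 of 64 higher. Other genes of at most 10 kb had 0.23, with 511 higher and 56 lower of 4666. Olfactory receptor genes, which are short and silent outside the olfactory epithelium, had -0.27, with 0 higher and 20 lower of 281. Of all genes tested 2.03% were lower. Without the solvent library rich in G the medians were 0.18 in large subunit genes, 0.26 in small subunit genes, 0.42 in ribosome biogenesis genes, 0.19 in mitochondrial ribosomal protein genes, 0.16 in translation factors, 0.28 in other genes of at most 10 kb and -0.28 in olfactory receptor genes. At that setting 5 of 31 small subunit and 2 of 45 large subunit genes were higher, 8 of 76 mitochondrial ribosomal protein genes were higher and 2 lower, 4 of 64 translation factors were higher, 7 of 29 ribosome biogenesis genes were higher and 31 of 288 olfactory receptor genes were lower. Of other genes of at most 10 kb, 682 of 4682 were higher and 62 lower. Of all 18335 genes tested at that setting, 2581 were higher and 500 lower (16.8% in either direction). Set beside the 11.1% of all genes that were higher, the members' 1 of 76 is not a raised count.

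**Figure D3:**
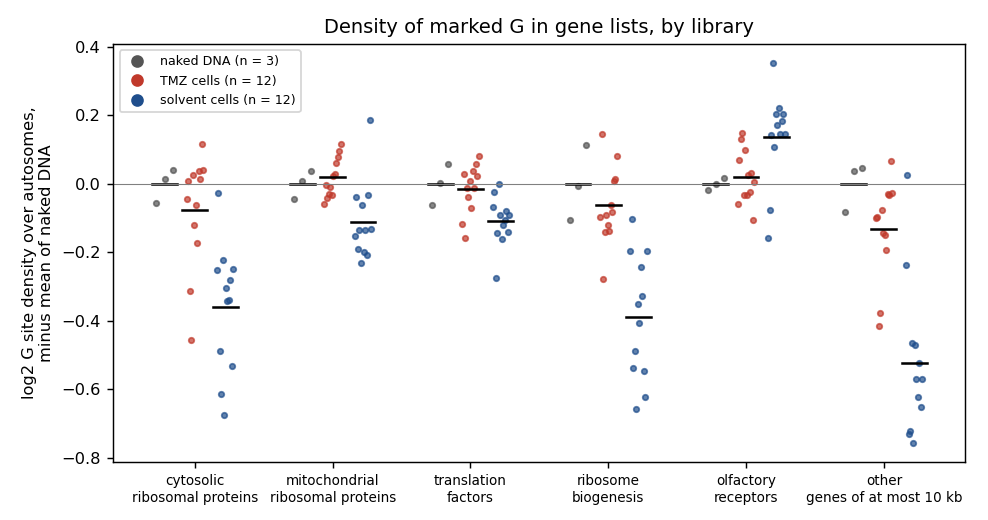
Each point is 1 library, black lines are group means, and the vertical axis is the log2 density of marked G in a gene list over the autosomes, minus the naked DNA mean. In the cytosolic ribosomal protein genes TMZ cells average -0.077 and solvent cells -0.361; in other genes of at most 10 kb the averages are -0.132 and -0.524, and in olfactory receptor genes 0.021 and 0.137, the opposite order.

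Against naked DNA the lists lay closer together. The median fitted difference was -0.076 in the members, -0.032 over all genes, 0.035 in mitochondrial ribosomal protein genes, -0.026 in translation factors, -0.062 in ribosome biogenesis genes, 0.012 in olfactory receptor genes and -0.11 in other genes of at most 10 kb. None of the genes tested in the lists passed, while 0.672% of all genes tested did. Between MGMT and WT cells under TMZ the members' median was -0.12 and that of all genes -0.020, with 28 of 76 members positive (36.8%) against 46.3% of all genes. Translation factors had a median of 0.0043, with 5 of 64 higher in MGMT cells, where 3.65% of all genes were higher. Of mitochondrial ribosomal protein genes 1 of 76 was higher, of ribosome biogenesis genes 1 of 29 and of olfactory receptor genes 3 of 281, and none of these 4 lists had a lower one.

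Within 2 kb of the start, the 1 kb bins next to it differed most from naked DNA, over all TMZ libraries and over all solvent libraries. In the 60 members with a strand, the kilobase before the start stood at -0.275 ± 0.221 in TMZ cells (n = 12) and -0.809 ± 0.571 in solvent cells (n = 12), and the kilobase after it at -0.250 ± 0.337 and -0.634 ± 0.332. After 3 exposures the latter bin was at -0.062 ± 0.257 and after 1 exposure at -0.438 ± 0.313 (n = 6 each). From 1 to 2 kb after the start TMZ cells were at 0.076 ± 0.172, no lower than naked DNA. After 3 exposures alone that bin was at 0.074, so the bin just after the start was no further from naked DNA. The 15040 other genes had -0.162 and -0.594 before the start and -0.179 and -0.752 after it. The bins of the members held 1180 and 1403 sites in TMZ cells but 137 and 158 in solvent cells. Without the solvent library rich in G the members' solvent values were -0.850 before the start and -0.685 after it. These profiles are a description with no test. No solvent background was subtracted in them, and its part in the TMZ values was not tested.

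**Figure D4:**
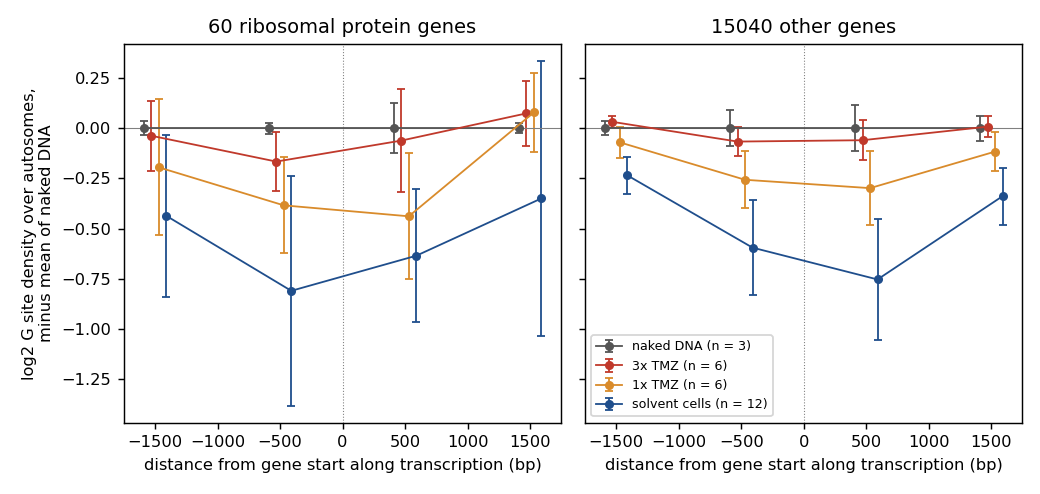
Points are means over libraries and bars 1 SD, for 1 kb bins by distance from the gene start along transcription (points are shifted sideways for legibility). The vertical axis is the log2 density of marked G over the autosomes minus the naked DNA mean. In both panels solvent cells lie lowest on either side of the start (-0.809 and -0.634 in the members), 1 exposure to TMZ lies between, and 3 exposures lie nearest to naked DNA.

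The strand of the marks was read in gene bodies, where transcription-coupled repair could act on the template strand. The coding strand held 53.7%, 54.4% and 56.3% of marked G of the 60 members in naked DNA. In TMZ cells its share ran from 51.0% through a median of 57.8% to 63.2%, and in solvent cells, with 29 to 134 sites each, from 43.3% through 49.5% to 71.7%. The log2 ratio of coding to template strand in TMZ cells was 0.16 ± 0.182 above naked DNA (0 ± 0.079, n = 3), within the spread (exact permutation p = 0.174, adjusted p = 0.521). In set 1 the difference was 0.43, and without replicate 1 it was 0.091. In other genes the coding share was 52.5% to 53.5% in naked DNA and 52.8% to 54.8% in TMZ cells. MGMT and WT cells under TMZ had coding shares of 57.3% ± 4.27 and 57.7% ± 1.6 (n = 6 each), and their log2 ratios differed by -0.024 (exact permutation p = 0.870). That difference was 0.137 without replicate 2 and 0.061 with sites of more than 1 library left out.

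**Figure D5:**
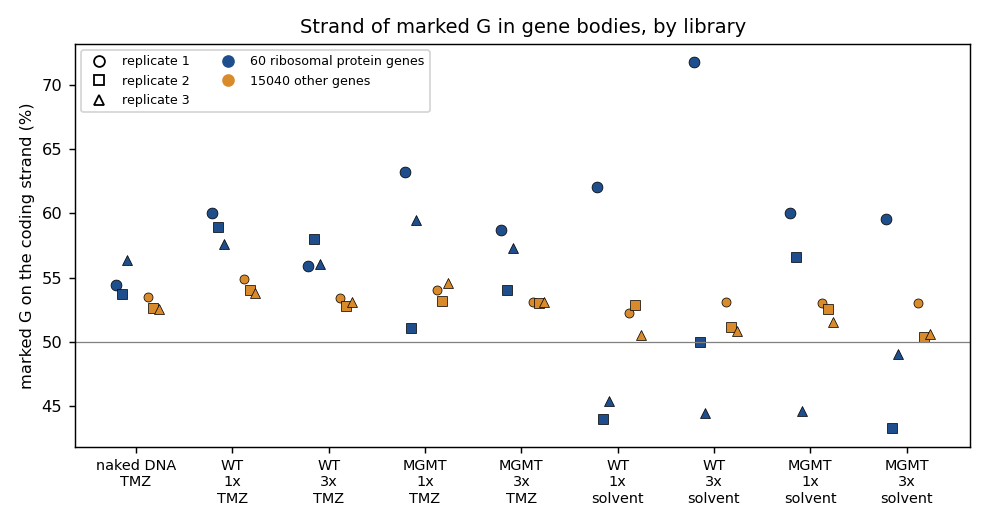
Each point is 1 library and the vertical axis is the percentage of marked G on the coding strand in gene bodies, for 60 ribosomal protein genes (blue) and 15040 other genes (orange). The line is at 50%. In TMZ cells the ribosomal protein genes lie between 51.0% and 63.2%, and in solvent cells, with few sites, they scatter from 43.3% to 71.7%.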

How the data were processed

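O6-methylguanine sites were read from 27 lists, 1 per library, each giving chromosome, position, strand, base and a score. The score column was deposited by the authors with no header; what it scores is not given in the sources used here, and it served only as a filter (minimum 30). Per the submitters' processing notes, reads were handled with Trimmomatic (0.38 and 0.39), cutadapt, FastQC 0.11.9, Bowtie2 2.3.5.1, SAMtools 1.12, bedtools 2.29.2 and GATK 4.2.0.0 on GRCh38. The lists hold each position 1 time, so values are numbers of distinct sites, not reads.

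Sites at G on the autosomes were counted per gene with 2 kb on either side. Pooled member densities were compared by exact two-sided permutation over samples, with Benjamini-Hochberg adjustment over 12 comparisons. Genes with a mean of at least 3 sites per library were fitted with limma 3.58.1 (voom, R 4.3.3) with all 9 groups, at an adjusted p of 0.05. A pseudocount of 0.5 entered the log2 values of the mean over members, of limma-trend and of the bins used to check pairing. The pooled densities and the start profile had none. Scripts used Python 3.11.15, and the fit was tested on simulated data. The members and lists were chosen with earlier results of these data known. Named genes were those past the threshold, the 6 highest and 6 lowest against naked DNA, the 5 with the most sites per kb in naked DNA, 4 paralogs and 4 well known members; exceptions are marked in the text, and 1 named gene is not reported here. Same-numbered samples deviated together in 7 of 12 pairs of genotypes and 6 of 12 pairs of treatments (r over 0.1 across 2718 bins), so the numbers were not taken as pairs. Alternatives covered score, filter, sizes, gene bodies, denominators, sets and left-out libraries.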

Additional observations from a re-analysis of the deposited data

Results flagged for a closer look

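The TMZ minus solvent difference in the density of marked G in the ribosomal protein genes was 0.40 after 3 exposures and 0.16 after 1 (n = 6 libraries of each kind), a difference of 0.237 on the log2 scale. It stands here because a test of the difference between the effects passed (exact permutation p = 0.005, adjusted p = 0.030 over 6 tests). That test matched TMZ and solvent libraries by replicate number, and the numbers were not accepted as pairs, so its p holds for this matching. The comparison of exposures under TMZ alone, which needs no matching, had an adjusted p of 0.120 (exact permutation test). The difference between the effects was 0.216, 0.273 and 0.224 without replicate 1, 2 or 3 and 0.165 as a mean over members. In all other genes it was 0.049, and in other genes of at most 10 kb it was 0.328, larger than in the members. The 3 exposure groups also hold the deeper TMZ libraries and lie partly in other sets of libraries, and the part of either in the difference was not tested.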

How the results depend on the processing

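Of 193 values under other settings, over 16 results, 9 went from an unadjusted p of at most 0.05 to one above it and 1 the other way, 9 tested values changed sign and 16 untested values or counts moved by more than the replicate spread or 1.5 times. Of those 9 that went above 0.05, 6 belong to the exposure difference, which had not passed after adjustment. Comparisons of lines or of exposures without replicate 1, 2 or 3 allow no exact permutation p below 0.0556. At those settings the exposure difference thus had to go above 0.05, and no difference between lines could come below it. The other 158 did none of these, but values within sets had no test, and there, among others, the density differences of TMZ against naked DNA (0.037) and of MGMT against WT under TMZ (0.052) had the opposite sign in set 1. A called result changed sign for TMZ against solvent over other genes of at most 10 kb (-0.109), and over mitochondrial ribosomal protein genes it missed the threshold (0.154, exact permutation p = 0.0786) and the MGMT difference over translation factors came below 0.05 unadjusted (-0.171, exact permutation p = 0.030); these denominators were chosen after the data had been seen. The other sign changes were in uncalled results: TMZ against naked DNA over genes of at most 10 kb (0.054), the strand ratio between the lines with sites of more than 1 library left out (0.061), and the lines under solvent with no minimum score (0.025), without 3 paralogs (0.023) and with sites of more than 1 library left out (0.104). TMZ against solvent as a mean over members was 0.178. The exposure difference was 0.144 in gene bodies and 0.184 with solvent background subtracted (exact permutation p = 0.255). Within sets 1, 2 and 4 the lines under solvent differed by 0.225, -0.289 and 0.282. Sets 1 and 4 hold 1 solvent library of each line. In set 1 these had 60 (WT) and 161 (MGMT) sites in the members, and the MGMT one is the library rich in G. In set 4 they had 80 (WT) and 95 (MGMT) sites. Within sets 1 and 2 the odds at G differed between the lines by 0.345 and -0.073, and within set 1 the strand ratio differed by 0.425 against naked DNA and by 0.195 between the lines. With no minimum score 9 members (11.8%) were called against solvent, and 20.4% of all genes. For MGMT against WT 0 were called with no minimum score, by limma-trend and in gene bodies, where 4.37%, 0.803% and 5.66% of all genes were. The cause of these changes was not tested.

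Leaving out each replicate or the solvent library rich in G gave, for density, -0.127 to -0.019 against naked DNA, 0.257 to 0.314 against solvent, -0.088 to -0.065 between lines under TMZ, 0.085 to 0.303 for exposures and -0.076 to 0.045 between lines under solvent, with 0.045 and 0.0044 without replicates 1 and 2. Over other genes the ranges were -0.105 to -0.014, 0.199 to 0.241 and -0.084 to -0.062. For the odds at G they were 0.032 to 0.062 and 0.034 to 0.095, and for the strand ratio 0.091 to 0.201 and -0.125 to 0.137 (the last without replicate 2). Members called ran from 0 to 7 against solvent and from 0 to 1 between lines (RPL30 lower with all replicates, RPL31 higher without replicate 1, and 0 without replicates 2 and 3, where 1.37% and 2.31% of all genes were called). Where replicate number entered as a block, the exposure difference was 0.192 (exact permutation p = 0.0938, smallest possible 0.0312), TMZ against solvent was 0.283 (exact permutation p = 0.000488, the smallest possible), and 0, 1, 1 and 0 members were called for naked DNA, solvent, genotype and interaction, beside 1.39%, 10.5%, 5.95% and 0% of all genes. Site numbers limit the precision of single libraries, down to 60 sites over all members.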
